A study of Mus musculus with 12 samples.

Results

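The immediate early genes described here are Fos, Fosb, Jun, Junb, Egr1, Ier2, Ier3, Atf3, Myc and Klf6. They were chosen by name, 10 of the 21936 mouse genes whose reads had been counted in fibrotic and recovering liver. The rule gives names and no measured value, but it was set with earlier results of these data known. Male C57BL/6 mice (C57BL/6J in the study's methods), 6 weeks old when bought, were all injected intraperitoneally with carbon tetrachloride (CCl4) in olive oil at 1 mL per kg, 2 times per week for 8 weeks. CCl4 injures hepatocytes and leads to fibrosis. Livers of the fibrosis group (LFG) were collected at the end of the CCl4 course. The regression group (REG) was then given phosphate-buffered saline into the tail vein for 4 weeks, at 2 injections per week, and the hADMSCs-Exo group received exosomes of human adipose mesenchymal stem cells, small vesicles shed into culture medium, in the same buffer by the same route and schedule. Each group had 3 RNA-seq libraries of whole liver. REG and hADMSCs-Exo livers were therefore taken later than LFG livers, so that the 4 weeks without CCl4 and the injections of either kind cannot be told apart in a comparison with LFG. REG against hADMSCs-Exo had no such gap. The exosomes were human and the hosts were mice, and a group that received cells in place of exosomes was not analysed here. The columns read as hADMSCs-Exo are headed MSC_E in the table and were matched to that group by name, so the identity of the values given for it rests on that reading. The labels do not say that each library came from a separate animal, so p-values measure the spread between these libraries, which may be technical.

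Immediate early genes are transcribed within minutes of a stimulus, from transcription factors already present in the cell and without new protein synthesis, and their mRNAs are short-lived. FOS and FOSB pair with JUN or JUNB to form AP-1, and ATF3 is a stress-induced partner of the same leucine zipper class. EGR1 and KLF6 are zinc finger factors, MYC drives growth genes together with MAX, and IER2 and IER3 are small immediate early response proteins without such a DNA-binding domain. In liver, AP-1 factors, Egr1, Atf3 and Myc are known for their quick induction after partial hepatectomy, toxic injury or handling of the tissue, and Klf6 for induction in activated stellate cells, the collagen-producing cells of the fibrotic liver.

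All 10 are protein-coding genes of GRCm38. The files place Fos (ENSMUSG00000021250) at chr12:85473890-85477273 on the plus strand, Fosb (ENSMUSG00000003545) at chr7:19302696-19310051 on the minus strand, Jun (ENSMUSG00000052684) at chr4:95049034-95052222 on the minus strand and Junb (ENSMUSG00000052837) at chr8:84976910-84978718 on the minus strand. Atf3 (ENSMUSG00000026628) lies at chr1:191170296-191218039 on the minus strand and Klf6 (ENSMUSG00000000078) at chr13:5861482-5870394 on the plus strand. Myc (ENSMUSG00000022346) lies at chr15:61985391-61990374 on the plus strand, Ier2 (ENSMUSG00000053560) at chr8:84661331-84662854 on the minus strand and Ier3 (ENSMUSG00000003541) at chr17:35821684-35822923 on the plus strand. The sources do not state whether the counting used strand. Jun overlaps an antisense transcript, Junos, and Atf3 holds a small RNA gene, Gm24748, on the opposite strand, so the counts of these 2 genes could include reads of the overlapping ones.

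RefSeq promoter sequence of GRCm38.p6 was matched for 7 of the 10 genes. The 250 bases before the transcription start are printed for Fos, Jun and Atf3, the genes with the lowest unadjusted p in REG against LFG, so that the elements searched for can be read beside their values. Capitals mark the GC box (GGGCGG), the core of the cyclic AMP response element, or CRE (TGACGT), and the TATA box (TATAAA), each searched on both strands. Adjacent GC boxes can share letters. Fos is read at chr12:85473640-85473889 on the plus strand, Jun at chr4:95052223-95052472 on the minus strand and Atf3 at chr1:191183334-191183583 on the minus strand, the last within the annotated span of its gene.
Fos: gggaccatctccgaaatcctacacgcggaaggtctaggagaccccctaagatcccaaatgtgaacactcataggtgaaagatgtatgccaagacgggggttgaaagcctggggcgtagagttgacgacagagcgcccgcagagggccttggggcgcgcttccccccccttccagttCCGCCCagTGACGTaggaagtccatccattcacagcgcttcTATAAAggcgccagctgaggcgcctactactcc
Jun: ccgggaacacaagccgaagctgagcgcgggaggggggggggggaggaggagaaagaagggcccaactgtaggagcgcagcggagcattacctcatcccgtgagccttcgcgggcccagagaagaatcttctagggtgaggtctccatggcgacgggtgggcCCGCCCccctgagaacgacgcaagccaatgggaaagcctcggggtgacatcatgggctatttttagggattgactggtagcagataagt
Atf3: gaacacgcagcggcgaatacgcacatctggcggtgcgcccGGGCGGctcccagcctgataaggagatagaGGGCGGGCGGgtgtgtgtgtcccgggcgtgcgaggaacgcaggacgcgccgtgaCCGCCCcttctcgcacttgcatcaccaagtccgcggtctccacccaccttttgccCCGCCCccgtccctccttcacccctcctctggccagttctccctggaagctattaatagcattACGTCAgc
Fos held a CRE core from -66 to -61, a TATA box from -33 to -28 and a GC box from -74 to -69, counted from the start. Jun held a GC box from -89 to -84, and Atf3 held 5 GC boxes and a CRE core from -8 to -3. A GC box was in 6 of the 7 promoters, all except that of Junb, against 32.7% of all 32851 RefSeq promoters of this length. The CRE core was in 2 of 7, Fos and Atf3, against 6.47%, and the TATA box in 1 of 7, Fos, against 12.4%. The CArG box, by which serum response factor binds, and the AP-1 site TGANTCA were in 0 of 7, against 1.47% and 6.75% of all promoters. These matches describe letters in a short window and are not sites of measured binding. A site with other letters, or outside these 250 bases, would not be found, so the counts of 0 do not show that such sites are absent.

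Total counts per library ran from 13837445 in LFG 3 to 19840917 in REG 3. LFG 3 stood apart from LFG 1 and LFG 2: it detected 13924 genes, fewer than any other library (up to 15248), and had a TMM factor, edgeR's correction for composition, of 0.808 against 1.09 and 1.38. The summed CPM (counts relative to the TMM-scaled library total) of 10 macrophage markers was 171 in LFG 3, against 1535 and 1261 in the other LFG libraries, and that of 11 markers of stellate cells and myofibroblasts was 70.8, against 1212 and 849. All 8 hepatocyte markers were present in every library, with summed levels of 86125 to 170270 CPM, so the tissue label held. Of the other cell type markers, Tagln was at 0 counts in 5 libraries and Ly6g in 2. The fitted changes of the immediate early genes against LFG are given below with and without LFG 3, and those of the other genes in part.

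Per length of gene, Ier2 and Junb had the highest levels of the 10, with medians over the 9 libraries of 21.6 and 21.4 FPKM, which divides counts by gene length and by the library total. Jun followed at 8.44 FPKM, then Egr1 at 3.98, Myc at 3.49 and Klf6 at 3.25 FPKM. Ier3 and Atf3 had medians of 1.87 and 1.80 FPKM, Fos of 0.726 FPKM and Fosb of 0.066 FPKM. Neighbours in this order overlapped in their ranges over libraries. All except Fosb had at least 10 counts in each of the 9 libraries, and these 9 genes were tested in every comparison. Fosb did not pass edgeR's filter on low counts in any of them and is described by its counts.

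**Figure D1:**
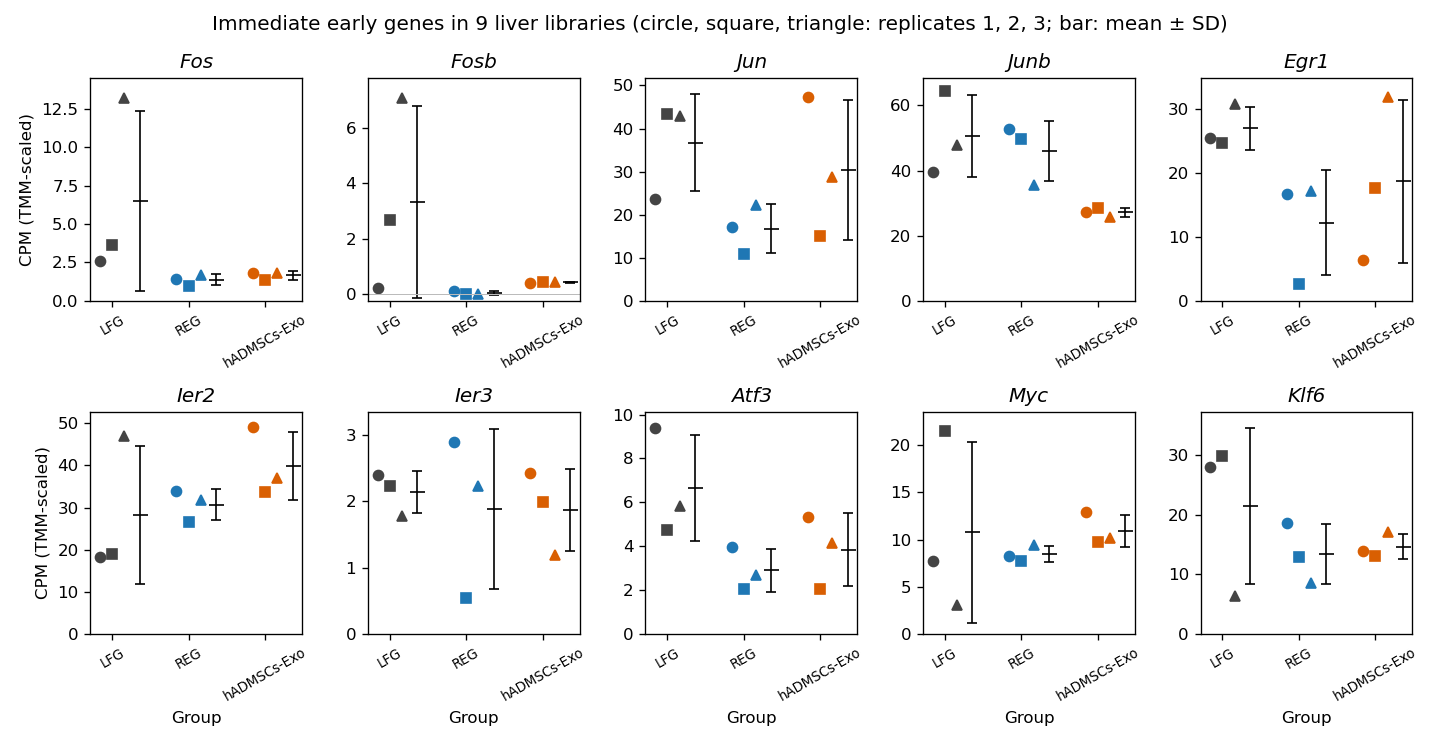
CPM after TMM scaling on the vertical axis of each panel, for the 10 immediate early genes in 3 libraries each of LFG, REG and hADMSCs-Exo. Points are libraries and bars are the mean ± SD of 3. For Fos and Fosb the points of LFG spread most, up to 13.2 and 7.06 CPM in LFG 3, and for Junb the hADMSCs-Exo points lie between 25.7 and 28.5 CPM, below all others.

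In the FOS family, Fos was higher in LFG than in the later groups, and both Fos and Fosb were most scattered there. Fos, whose product is the classic AP-1 partner of JUN, stood at 2.61, 3.63 and 13.2 CPM in LFG 1, 2 and 3. It stood at 1.42, 0.989 and 1.70 CPM in REG and at 1.83, 1.32 and 1.83 CPM in hADMSCs-Exo. The 3 LFG libraries lay above all 6 others, and REG and hADMSCs-Exo overlapped. In group means this was 6.49 ± 5.86 CPM in LFG, 1.37 ± 0.357 in REG and 1.66 ± 0.292 in hADMSCs-Exo (SD, n = 3), so that the LFG mean rested largely on LFG 3. Fosb, a close relative of Fos, had 5, 48 and 79 counts in LFG, 2, 0 and 0 in REG, and 7 in each hADMSCs-Exo library. A count of 0 allows up to 3 counts, or 0.165 CPM in REG 2 and 0.159 CPM in REG 3. LFG 1, at 0.210 CPM, lay below the hADMSCs-Exo libraries, which stood at 0.414 to 0.441 CPM, while LFG 2 and LFG 3, at 2.68 and 7.06 CPM, lay far above them. The summed counts of Fosb in LFG, scaled to depth, were 66.6 times those in REG (95% exact interval 18.1 to 555) and 5.87 times those in hADMSCs-Exo (3.69 to 9.80), and hADMSCs-Exo exceeded REG by 11.3 times (2.77 to 99.7). Without LFG 3 the first 2 ratios were 33.9 (8.93 to 287) and 2.99 (1.77 to 5.22). These intervals cover counting error only, and not the spread between libraries. REG lay below both other groups for Fosb, with no overlap, at a depth where 2 counts in 1 library were all that was seen.

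The JUN family members differed from each other in pattern. Jun, the central AP-1 subunit, stood at 23.7, 43.4 and 43.0 CPM in LFG, at 17.1, 10.9 and 22.3 CPM in REG and at 47.4, 15.0 and 28.8 CPM in hADMSCs-Exo. REG lay below LFG without overlap, by a narrow gap of 22.3 against 23.7 CPM, while hADMSCs-Exo overlapped both. Junb, an AP-1 subunit that can restrain JUN, was ordered otherwise: 39.6, 64.4 and 47.8 CPM in LFG, 52.8, 49.7 and 35.6 CPM in REG, and 27.3, 28.5 and 25.7 CPM in hADMSCs-Exo. Its LFG and REG libraries overlapped, and the 3 hADMSCs-Exo libraries lay below all 6 others within an SD of 1.40 CPM around a mean of 27.2. The SD of Junb was 12.6 CPM in LFG and 9.20 CPM in REG. Atf3, the stress-induced bZIP factor, stood at 9.39, 4.75 and 5.81 CPM in LFG, at 3.94, 2.03 and 2.71 CPM in REG and at 5.33, 2.05 and 4.16 CPM in hADMSCs-Exo. REG lay below LFG and hADMSCs-Exo overlapped both, with LFG 1 the highest library of Atf3.

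The zinc finger factors and Myc varied widely between libraries of a group. Egr1 (ENSMUSG00000038418), at chr18:34859823-34864984 on the plus strand, stood at 25.5, 24.8 and 30.8 CPM in LFG, the tightest group for this gene. It stood at 16.7, 2.69 and 17.2 CPM in REG and at 6.45, 17.7 and 31.9 CPM in hADMSCs-Exo, so the highest REG library was 6.41 times the lowest. REG lay below LFG without overlap, and hADMSCs-Exo reached from below REG 1 to above every LFG library. Klf6 stood at 28.0, 29.9 and 6.44 CPM in LFG, at 18.6, 12.9 and 8.60 CPM in REG and at 13.9, 13.01 and 17.1 CPM in hADMSCs-Exo. LFG 3 was the lowest of all 9 libraries for Klf6, whereas LFG 1 and LFG 2 were the highest. Myc stood at 7.74, 21.5 and 3.04 CPM in LFG, at 8.25, 7.69 and 9.39 CPM in REG and at 12.9, 9.70 and 10.1 CPM in hADMSCs-Exo. For Myc too LFG 3 was the lowest library and LFG 2 the highest, while hADMSCs-Exo lay above REG by a gap of 9.70 against 9.39 CPM.

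Ier2 was the only member of the 10 whose mean was lowest in LFG and highest in hADMSCs-Exo in both CPM and FPKM. It stood at 18.3, 19.1 and 47.0 CPM in LFG, at 33.8, 26.6 and 31.7 CPM in REG and at 49.0, 33.7 and 36.9 CPM in hADMSCs-Exo. LFG 1 and LFG 2 lay below all 7 other libraries, and LFG 3 above all except hADMSCs-Exo 1. Ier3, whose product is known as a regulator of survival under stress, stood at 2.40, 2.24 and 1.79 CPM in LFG, at 2.89, 0.549 and 2.23 CPM in REG and at 2.43, 1.99 and 1.20 CPM in hADMSCs-Exo. Its groups overlapped in every comparison, with means of 2.14 ± 0.316, 1.89 ± 1.21 and 1.87 ± 0.623 CPM (SD, n = 3). REG 2 was the lowest library for Ier3, Egr1, Fos, Jun and Atf3, and shared 0 counts of Fosb with REG 3.

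**Figure D2:**
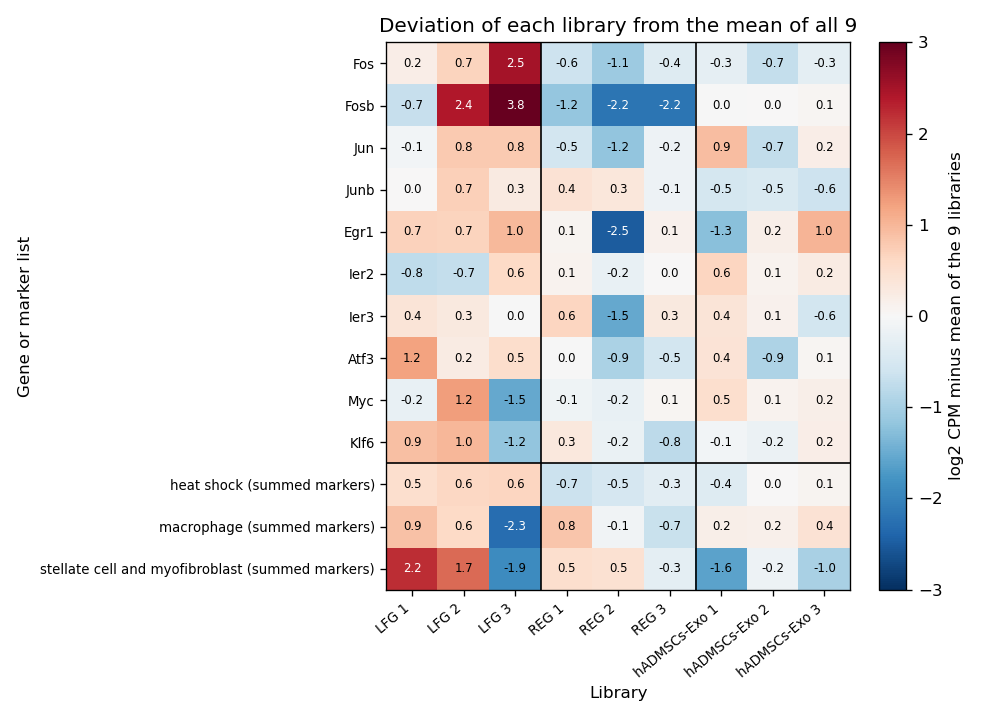
Log2 CPM of each immediate early gene, and log2 of the summed CPM of 3 marker lists, as the deviation of each library (horizontal axis) from the mean of all 9, with red above and blue below that mean. In LFG 3 Fos is 2.5 and Fosb 3.8 above the mean, while Klf6 is 1.2, Myc 1.5 and the macrophage markers 2.3 below it.

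REG was compared with LFG to ask what differed between livers at the end of the injury and livers left to recover under saline. Of the 9 genes tested, 8 had lower levels in REG, where 55.9% of all 12517 genes tested were lower. The median log2 fold change was -0.67 over the 9 and -0.07 over all genes. None passed the thresholds of the study, which ask for an adjusted p below 0.05 together with a log2 fold change of 1 or more in either direction, and neither did any other gene (0% of 12517). At an unadjusted p under 0.05 the members were Fos, Jun and Atf3, 3 of 9 and all lower, against 11.3% of all genes, 4.62% higher and 6.70% lower. Groups did not overlap for 4 of the 9, Fos, Jun, Atf3 and Egr1, all lower in REG, against 18.9% of all genes, 8.91% higher and 10.0% lower. Fosb, which was not tested, was also lower without overlap. With 3 libraries in each group, the smallest two-sided p of an exact permutation test is 0.1.

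Between REG and LFG, Fos differed by a log2 value of -2.22 (standard error 0.691, edgeR adjusted p = 0.38). Atf3 was at -1.19 (standard error 0.412, edgeR adjusted p = 0.392), Egr1 at -1.13 (0.615, 0.519) and Jun at -1.11 (0.349, 0.383), the standard error and adjusted p being given in parentheses. For Egr1 the value was -0.63 without REG 2 and -1.44 without REG 3. With 1 library left out, that of Fos lay between -2.60 (without LFG 1) and -1.14 (without LFG 3), that of Atf3 between -1.45 (without REG 1) and -0.85 (without LFG 1) and that of Jun between -1.35 (without LFG 1) and -0.86 (without REG 2). The groups of the other 5 overlapped, with Klf6 at -0.67, Myc at -0.34, Ier3 at -0.17, Junb at -0.12 and Ier2 at 0.14 and edgeR adjusted p from 0.67 to 0.938. Over the alternatives the adjusted p of Fos ran from 0.0317 to 0.928 and that of Jun from 0.0237 to 0.928, both lowest with limma's voom and quality weights. With these weights, which count a scattered library less, 4 members passed both thresholds, all lower in REG: Jun at -1.40 (adjusted p = 0.0237), Fos at -1.48 (0.0317), Klf6 at -1.13 (0.0349) and Atf3 at -1.17 (0.0494), where 10.3% of all genes passed. Egr1 was farthest from 0 there, at -2.01 (adjusted p = 0.0507), and Ier3 was at -1.02 (0.231), Myc at -0.93 (0.115) and Ier2 at 0.60 (0.0514). DESeq2 gave Fos an adjusted p of 0.0542 and passed no member, against 1.92% of all genes.

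hADMSCs-Exo was compared with LFG to ask the same of livers given exosomes. Here 7 of the 9 tested genes had lower levels, with a median log2 fold change of -0.54 against -0.06 over 12489 genes, of which 56.9% were lower. None passed the thresholds, nor did any other gene (0%). An unadjusted p under 0.05 was reached by Junb and Fos, 2 of 9 and both lower, against 5.98% of all genes, 2.30% higher and 3.68% lower. The same 2 were the only tested members without overlap between the groups, against 12.3% of all genes, 6.35% higher and 5.93% lower. Junb was at -0.90 (standard error 0.218, unadjusted p = 0.00448, edgeR adjusted p = 0.805) and Fos at -1.95 (0.661, 0.0219, 0.805). Atf3 had a log2 fold change of -0.80 and Klf6 of -0.57, Egr1 of -0.54, Jun of -0.28 and Ier3 of -0.21, with edgeR adjusted p of 0.825 or more. The value of Egr1 was -0.10 without hADMSCs-Exo 1 and -1.16 without hADMSCs-Exo 3. That of Atf3 was -0.46 without LFG 1, -0.49 without hADMSCs-Exo 2 and -1.08 without hADMSCs-Exo 1. With same-numbered libraries paired, Atf3 was at -0.84 and joined Junb and Fos at an unadjusted p under 0.05 (edgeR adjusted p = 0.823). Ier2 was at 0.51 (edgeR adjusted p = 0.873), and Myc was at 0.00 with a standard error of 0.636. Voom with quality weights passed 1 gene of the whole table (0.00801%) and DESeq2 0.480%, and none of either was a member. With voom Fos was at -1.06 (adjusted p = 0.119) and Myc at -0.57 (0.395), while Junb was at -1.10 (0.0611), Ier2 at 0.97 (0.0658) and Klf6 at -0.92 (0.0948). The comparisons with LFG share its 3 libraries, so the low values of Fos in both are not independent of each other.

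hADMSCs-Exo was compared with REG, both taken after 4 weeks of injections, to ask what differed between exosomes and saline. Of the 9 tested members, 7 were higher and 2, Junb and Ier3, were lower in hADMSCs-Exo. Their median log2 fold change was 0.37, against 0.01 over 12337 genes, of which 48.9% were lower. None passed the thresholds, which 1 gene of the table did (0.00811%). Junb was the only member with an unadjusted p under 0.05, against 10.0% of all genes, 5.34% higher and 4.69% lower. Its log2 fold change was -0.76 (standard error 0.173, unadjusted p = 0.00219, edgeR adjusted p = 0.358). With DESeq2 its adjusted p was 0.0335 at a log2 fold change of -0.77, which is short of the limit on fold change, where 0.543% of all genes passed both thresholds, and voom passed 0.0243% and no member. Over the alternatives the adjusted p of Junb ran from that value to 1, and with each library left out in turn its log2 fold change stayed between -0.92 and -0.64. The comparisons of hADMSCs-Exo with LFG and with REG share its 3 libraries, so the low values of Junb in both are not independent of each other. Groups did not overlap for 2 of the 9 tested genes, Junb, lower, and Myc, higher, against 15.5% of all genes, 8.07% higher and 7.47% lower. Scaled by library totals only, Ier2 was higher without overlap as well, and no other such count of members moved. The log2 fold change of Myc was 0.37 (standard error 0.186, edgeR adjusted p = 0.547). Jun was at 0.85 (0.41, 0.531) and was at 0.38 without hADMSCs-Exo 1, its highest library, and Egr1 at 0.61 (0.704, 0.793) was -0.02 without hADMSCs-Exo 3, 0.13 without REG 2 and 1.52 with voom (adjusted p = 0.42), where Ier3 was at 0.65. Ier2 was at 0.37 (0.181, 0.533), Atf3 at 0.41, Fos at 0.28, Klf6 at 0.13 and Ier3 at -0.02, with edgeR adjusted p of 0.755 or more for the last 4. Without hADMSCs-Exo 1, Atf3 was at 0.096, Ier2 at 0.20 and Myc at 0.23. Without hADMSCs-Exo 2 Atf3 was at 0.71, and without REG 2 Fos was at 0.080. Fosb was higher in all 3 hADMSCs-Exo libraries, at 7 counts each.

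**Figure D3:**
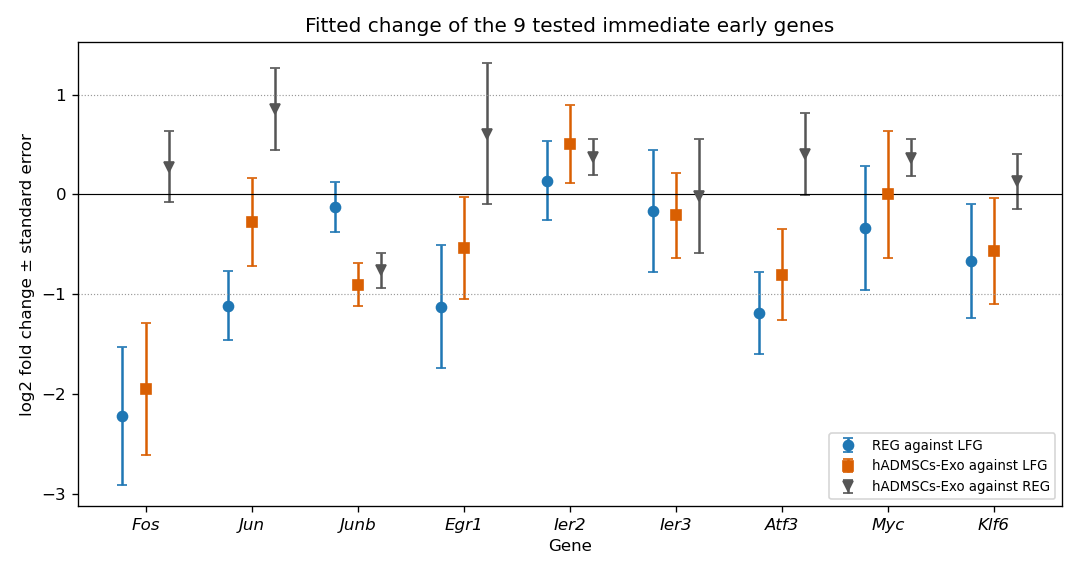
Log2 fold change (vertical axis, with standard errors as bars) of the 9 tested immediate early genes in the 3 comparisons, with dotted lines at the limit of 1. Fos lies at -2.22 and -1.95 against LFG and at 0.28 against REG, and Junb lies at -0.12 in REG against LFG but at -0.90 and -0.76 in the comparisons of hADMSCs-Exo. The comparisons of hADMSCs-Exo share the same hADMSCs-Exo libraries.

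Leaving out LFG 3 changed which members stood out. Against the 2 remaining LFG libraries, 1 of 9 members passed in REG, Klf6, lower in REG at -1.07 (standard error 0.296, edgeR adjusted p = 0.0471), against 10.7% of all genes, 3.81% higher and 6.94% lower. Ier2 was higher in REG by 0.76 (0.173, edgeR adjusted p = 0.0303), which is short of the limit on fold change. Fos was nearer to 0, at -1.14 (edgeR adjusted p = 0.0793), and Jun was at -0.95 (0.0844), Atf3 at -1.25 (0.066) and Egr1 at -1.002 (0.263). For hADMSCs-Exo 1 of 9 members passed, Ier2, higher by 1.11 (standard error 0.21, edgeR adjusted p = 0.0306), against 5.97% of all genes, 1.47% higher and 4.50% lower. Klf6 was at -0.97 (0.189, edgeR adjusted p = 0.0325), short of the limit, Junb at -0.92 (0.221, 0.0509) and Fos at -0.89 (0.374, 0.17). Myc then stood at -0.74 in REG and at -0.40 in hADMSCs-Exo against LFG, with edgeR adjusted p of 0.2 and 0.534. The values of Klf6 also depended on the other LFG libraries, at -0.43 without LFG 1 and -0.36 without LFG 2 in REG, and at -0.32 and -0.26 in hADMSCs-Exo. Ier2 in hADMSCs-Exo was at 0.27 without LFG 1. LFG 3 thus moved the value of Fos by over 1 unit of log2 in both comparisons and that of Junb by less than its standard error.

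**Figure D4:**
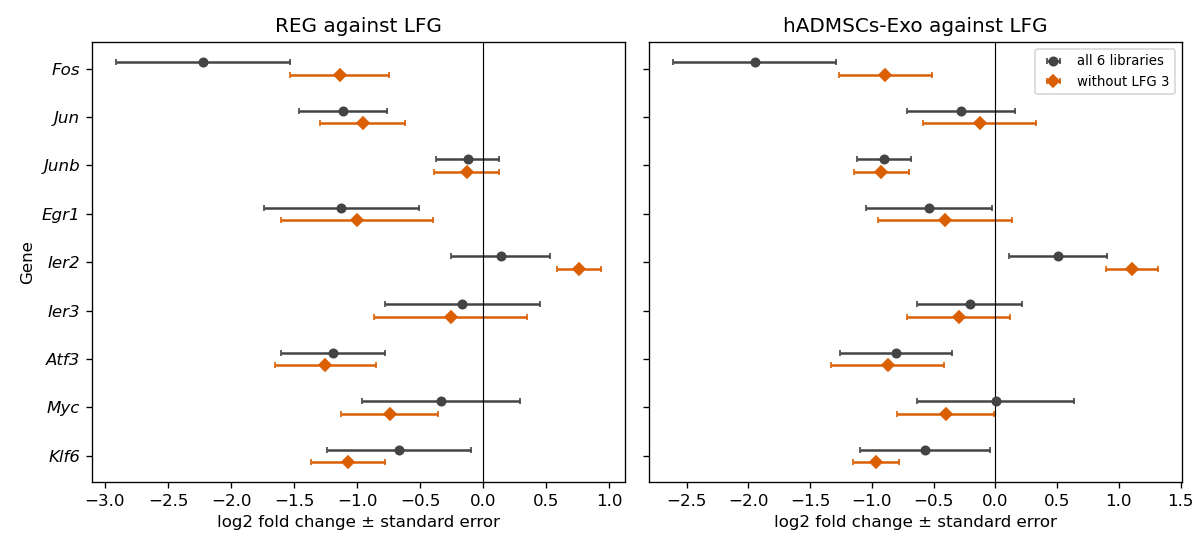
Log2 fold change with its standard error (horizontal axis) of each tested immediate early gene against LFG, with all 6 libraries and without LFG 3, for REG and for hADMSCs-Exo. Without LFG 3 Fos moves from -2.22 to -1.14 in REG, Klf6 from -0.67 to -1.07 and Ier2 from 0.14 to 0.76.

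Markers of cell types and of stress moved with some of these values. The summed markers of macrophages, stellate cells and myofibroblasts, neutrophils, lymphocytes, sinusoidal endothelium and cholangiocytes, all the lists except those of hepatocytes and heat shock, were lowest of all 9 libraries in LFG 3, as Klf6 and Myc were, whereas Fos and Fosb were highest there. For some lists the gap was small. Neutrophil markers summed to 11.5 CPM in LFG 3 and 11.8 CPM in REG 3. Sinusoidal endothelium markers summed to 87.9 CPM in LFG 3 and 92.6 CPM in hADMSCs-Exo 1, and cholangiocyte markers to 50.8 and 53.9 CPM in the same libraries. LFG 3 was also the lowest library for 25.5% and the highest for 25.8% of 12590 genes with enough counts to rank, so that 2 of 10 members at either end is no more than that share. In whole liver, fewer cells of a type and less RNA per cell cannot be told apart. Heat shock genes (11 chaperone genes such as Hspa1a and Hspa1b) had summed levels of 3654, 3940 and 3989 CPM in LFG, 1632, 1820 and 2065 CPM in REG, and 1953, 2609 and 2695 CPM in hADMSCs-Exo. LFG lay above the 6 other libraries, LFG 3 included, and 8 of the 11 genes were lower without overlap in REG and likewise 8 of 11 in hADMSCs-Exo, against 10.0% and 5.93% of all genes. Heat shock levels were thus high in the same libraries as Fos, with a spread among LFG libraries far smaller than that of Fos. Stellate cell and myofibroblast markers summed to 372, 358 and 213 CPM in REG and to 84.8, 234 and 133 CPM in hADMSCs-Exo, and 6 of 10 tested genes were lower without overlap in hADMSCs-Exo against REG, as Junb was, against 7.47% of all genes. Macrophage markers summed to 527 to 1494 CPM in REG and to 934 to 1136 CPM in hADMSCs-Exo, and neutrophil markers to 33.9, 23.8 and 11.5 CPM in LFG, 72.3, 20.3 and 11.8 CPM in REG and 43.5, 66.6 and 68.7 CPM in hADMSCs-Exo. In hADMSCs-Exo against LFG 6 of 7 tested neutrophil markers were higher without overlap, with a median log2 fold change of 2.06, and so were 5 of 9 lymphocyte markers, with a median of 1.04, against 6.35% of all genes. The part of these cell types, or of the heat shock genes, in the values of the immediate early genes was not tested.

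The other AP-1 and small MAF subunits, partners or rivals of FOS and JUN at the same DNA sites, gave 2 of 11 tested genes with an unadjusted p under 0.05 in REG against LFG, both lower, against 6.70% of all genes lower and 4.62% higher. They were Fosl2, which encodes FRA-2, at -1.81 (standard error 0.391, edgeR adjusted p = 0.266), and Maff, a small MAF gene, at -1.85 (0.489, 0.318). Fosl2 stood at 17.8, 36.5 and 13.3 CPM in LFG, at 6.53, 5.71 and 6.90 CPM in REG and at 9.18, 12.7 and 10.1 CPM in hADMSCs-Exo. Its 3 groups did not overlap in any comparison, and hADMSCs-Exo lay between LFG and REG, at -1.09 against LFG (edgeR adjusted p = 0.805) and 0.74 against REG (0.394). In hADMSCs-Exo against LFG 1 gene of this list was higher at an unadjusted p under 0.05, Batf3 at 1.11, and 2 were lower, Fosl2 and Maff, against 2.30% and 3.68% of all genes. In hADMSCs-Exo against REG 2 were higher, Fosl2 and Mafg (0.44), and 0 lower, against 5.34% and 4.69% of all genes. Jund, the subunit least dependent on stimulation, had log2 fold changes of -0.90 in REG against LFG, -0.56 in hADMSCs-Exo against LFG and 0.34 in hADMSCs-Exo against REG, and was at 21.5 CPM in LFG 3 against 4.17 and 7.43 CPM in LFG 1 and LFG 2.

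Of the other immediate early transcription factors, 15 were tested in REG against LFG, and 4 were lower and 1 higher at an unadjusted p under 0.05, against 6.70% and 4.62% of all genes. Nr4a1, an orphan nuclear receptor, stood at 3.37, 12.6 and 27.1 CPM in LFG, at 2.52, 1.76 and 1.01 CPM in REG and at 2.25, 3.01 and 3.34 CPM in hADMSCs-Exo. As with Fos, LFG lay above both other groups and LFG 3 was the highest library. Its log2 fold change was -3.01 in REG (standard error 0.777, edgeR adjusted p = 0.312) and -2.31 in hADMSCs-Exo (0.697, 0.805) against LFG. Cebpb, a bZIP factor of the acute phase response, was at -1.23 in REG against LFG (edgeR adjusted p = 0.309) and at 0.93 in hADMSCs-Exo against REG (0.38), without overlap in either. Btg2, an antiproliferative early gene, was at 0.80 in hADMSCs-Exo against REG (0.358), where 4 of 14 tested genes of the list were higher and 0 lower at an unadjusted p under 0.05, against 5.34% and 4.69% of all genes. Irf1, an interferon-responsive factor, went the other way, higher than in LFG by 0.89 in REG and 0.73 in hADMSCs-Exo. In hADMSCs-Exo against LFG 1 of 15 was higher, Irf1, and 1 lower, Nr4a1, against 2.30% and 3.68% of all genes. Egr2, a relative of Egr1, was at or under 1.23 CPM in every library.

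Of 14 tested serum response factors and MAP kinases, which carry the stimulus to these genes, 1 was lower at an unadjusted p under 0.05 in each comparison with LFG, Creb1, the CRE-binding factor, at -0.53 in REG and -0.59 in hADMSCs-Exo, and 0 were higher, where 6.70% and 3.68% of all genes were lower at that p. In hADMSCs-Exo against REG 0 of 14 reached it. Srf itself was at -0.28 in REG against LFG, -0.07 in hADMSCs-Exo against LFG and 0.23 in hADMSCs-Exo against REG. In the same order of comparisons, and on the same scale of log2 fold change, it was followed by Map2k4, a kinase of JNK, at -0.27, -0.21 and 0.07, Mapk14, which encodes p38 alpha, at 0.05, 0.32 and 0.29, and Elk3 at 0.22, -0.47 and -0.67. Feedback inhibitors, the phosphatases and RNA-decay factors that end the response, gave 6 of 22 genes lower and 0 higher at an unadjusted p under 0.05 in REG against LFG, where the share of all genes was again 6.70% lower. Dusp5, a phosphatase of ERK, was at -1.68 (standard error 0.397, edgeR adjusted p = 0.309), Sik1, a salt-inducible kinase, at -1.91 (0.466, 0.309) and Dusp6, another ERK phosphatase, at -1.02 (0.408, 0.43). In hADMSCs-Exo against LFG 2 of 21 were lower, Dusp5 at -1.11 and Sik1 at -1.29, against 3.68% of all genes. In hADMSCs-Exo against REG 2 of 21 were higher, Dusp2 at 2.09 and Dusp8 at 2.19, both at or under 0.879 CPM in the REG libraries, against 5.34% of all genes. Dusp1 was at -0.93, -0.68 and 0.26 in the 3 comparisons, Zfp36 at 0.09, 0.26 and 0.19, Socs3 at 0.36, 0.05 and -0.29, and the EGR1 corepressor gene Nab2 at 0.61, 0.30 and -0.30. None of these lists had a gene past the thresholds.

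The partners of MYC and a short list of its target genes are given beside Myc itself, whose groups overlapped in both comparisons with LFG. Max, the obligate partner of MYC, stood at 30.5, 29.3 and 35.5 CPM in LFG, at 18.6, 15.3 and 19.5 CPM in REG and at 21.5, 23.5 and 24.2 CPM in hADMSCs-Exo. These groups did not overlap in any comparison, and Max had log2 fold changes of -0.82 (edgeR adjusted p = 0.299), -0.47 (0.805) and 0.37 (0.488) in REG against LFG, hADMSCs-Exo against LFG and hADMSCs-Exo against REG. It was the 1 gene of 9 tested in this network with an unadjusted p under 0.05 in each, against 11.3%, 5.98% and 10.0% of all genes. Of the genes for rival partners of MAX, Mga was at -0.45, -0.53 and -0.06, Mxd1 at -0.63, -0.56 and 0.09, and Mnt at -0.47, -0.01 and 0.49. Of 12 MYC target genes, 4 were lower and 0 higher at an unadjusted p under 0.05 in REG against LFG, 1 lower and 0 higher in hADMSCs-Exo against LFG, and 4 higher and 0 lower in hADMSCs-Exo against REG. The shares of all genes in these directions were 6.70% lower, 3.68% lower and 5.34% higher. Cad, the first enzyme of pyrimidine synthesis, stood at 21.4, 18.1 and 13.8 CPM in LFG and at 7.08 to 9.46 CPM in the 6 other libraries, with log2 fold changes of -1.11 (edgeR adjusted p = 0.267) in REG and -0.98 (0.805) in hADMSCs-Exo. The nucleolar genes Ddx21 and Nolc1 were at 0.52 and 0.72 in hADMSCs-Exo against REG (edgeR adjusted p = 0.38 and 0.407). The polyamine genes Odc1 and Srm were at -0.29 and -0.58 in REG against LFG, at -0.05 and -0.47 in hADMSCs-Exo against LFG, and at 0.26 and 0.13 in hADMSCs-Exo against REG. None of these genes passed the thresholds.

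Without LFG 3 some genes of these lists did pass them. In REG against LFG they were 1 of 11 other AP-1 and small MAF subunits, Fosl2 at -2.04 (edgeR adjusted p = 0.0149), and 3 of 15 other immediate early transcription factors, Btg2 at -1.61 (0.0154), Nfil3 at -2.04 (0.028) and Nr4a1 at -2.13 (0.0472), all lower in REG. They also were 3 of 22 feedback inhibitors, Dusp8 at -3.93 (edgeR adjusted p = 0.0178), Dusp5 at -1.76 (0.029) and Sik1 at -1.997 (0.0324), and 1 gene each of the MYC network, Mxd3 at -3.04 (0.0327), and of the MYC targets, Cad at -1.23 (0.0154). In hADMSCs-Exo against LFG they were Fosl2 at -1.33 (edgeR adjusted p = 0.0474), Cad at -1.11 (0.0259) and Spry2, a feedback inhibitor of receptor signaling, at -2.30 (0.0329). In all 9 of 84 genes of these lists passed in REG, all lower (10.7%, where 10.7% of all genes passed and 6.94% passed lower). In hADMSCs-Exo 3 of 85 passed, all lower (3.53%, where 5.97% of all genes passed and 4.50% passed lower). Over both directions the lists' share thus lay at the background or below it. In the lower direction it lay above the background in REG and below it in hADMSCs-Exo. None of the lists of other pathway genes had a gene that passed in the higher direction. Nfil3, Mxd3 and Spry2 are named for passing here and were picked after their values were seen. Nr4a1, Dusp5 and Sik1 did not pass in hADMSCs-Exo against LFG, at -1.46 (edgeR adjusted p = 0.126), -1.20 (0.0975) and -1.38 (0.132). In REG against LFG without LFG 3, Max was at -0.71 (edgeR adjusted p = 0.0348), Cebpb at -0.98 (0.0401) and Irf1 at 0.98 (0.0486), all short of the limit on fold change, and Maff at -1.64 (0.0519), Creb1 at -0.59 (0.0764) and Dusp6 at -0.57 (0.208). Jund turned its direction without LFG 3, to 0.07 in REG and 0.37 in hADMSCs-Exo against LFG, and in REG so did Elk3, to -0.14, and Mapk14, to -0.10. Zfp36 was then at 0.44 in REG and 0.61 in hADMSCs-Exo against LFG, and Nab2 at 0.97 and 0.64. Odc1 was at -0.46 and -0.24 and Srm at -0.34 and -0.24, with edgeR adjusted p of 0.069 or more for these 4. Of the markers, 7 of 11 heat shock genes passed in REG and 4 of 11 in hADMSCs-Exo, all lower, and 3 and 6 of 10 stellate cell and myofibroblast markers, also all lower. Of 6 cholangiocyte markers 3 passed in REG and 1 in hADMSCs-Exo, all lower. Of the neutrophil markers 3 of 7 passed in hADMSCs-Exo, all higher, and 0 of 6 in REG. Of 10 macrophage markers 1 passed in hADMSCs-Exo, lower, and 0 in REG. The hepatocyte, lymphocyte and sinusoidal endothelium markers gave 0 in both.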

How the data were processed

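Total RNA of mouse liver had been extracted with Trizol, prepared with an NEBNext Ultra kit and sequenced on an Illumina NovaSeq. The authors deposited raw counts per gene for 9 of 12 samples, not normalized, and beside them FPKM, recomputed here from the counts, gene lengths and totals to within 9.19e-07 of each value. FPKM served to order genes by level. The submitters' processing notes name cutadapt 1.15, HISAT2 2.0.5, HTSeq 0.9.1, DESeq 1.30.0 and GRCm38, and the use of strand is not given in the sources used here. The columns headed MSC_E were matched by name to the samples titled Exo, as the titles of the group given cells carry no E, and the identity of the hADMSCs-Exo values rests on that reading. The table had 0 per-sample columns left unused.

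The quasi-likelihood test of edgeR 4.0.16 (R 4.3.3) was run two-sided on the counts, with TMM normalization, the filter filterByExpr, the 6 libraries of a comparison in each fit and Benjamini-Hochberg adjustment over all genes tested. A gene passed with an adjusted p below 0.05 together with a log2 fold change of 1 or more in either direction, as the methods of the study set it. Standard errors were derived from the F statistic. CPM was scaled by TMM over the 9 libraries, and log2 CPM used a prior count of 2. Python 3.11.15, pandas 2.3.3, scipy 1.17.1 and matplotlib 3.10.9 were used for summaries, intervals and plots. Depth ran from 13837445 to 19840917 counts per library. Samples were grouped by their labels.

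Alternatives were RLE size factors, DESeq2 1.42.0, voom with quality weights (limma 3.58.1), no filter, a minimum of 10 counts per library, a joint fit of all 9 libraries, a block for the replicate number, an adjusted p without the fold limit, an unadjusted p, and leaving out single libraries. Scaling by library totals only was added after the data had been seen. Same-numbered libraries were treated as pairs only in the fits with the replicate block, and the main fits of every comparison were unpaired. For hADMSCs-Exo and LFG the deviations of same-numbered libraries had correlations of 0.101, 0.308 and 0.18. These values do not show that such libraries belong together, as LFG livers were taken earlier and the samples share only a number.

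All 10 members were named whatever their values. Of each other list up to 2 genes with the lowest unadjusted p in a comparison were named, plus Fosl2, Jund, Nr4a1, Egr2, Dusp1, Dusp6, Zfp36, Socs3, Nab2, Srf, Mxd1 and Odc1. The members and lists were chosen with earlier results of these data known.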

Additional observations from a re-analysis of the deposited data

How the results depend on the processing

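No immediate early gene passed the thresholds with all libraries under edgeR, and this count of 0 held in each comparison under RLE size factors, DESeq2, both other filters, all 9 libraries in one fit, the replicate block, library totals only and no limit on fold change. It was 4 in REG against LFG with voom and quality weights. At an unadjusted p it was 3 in REG against LFG, 2 in hADMSCs-Exo against LFG and 1 in hADMSCs-Exo against REG. With each library left out it ran from 0 to 1 in both comparisons with LFG, the 1 being reached without LFG 3, and was 0 in hADMSCs-Exo against REG. The replicate block, the pairing of same-numbered libraries, changed no call at the adjusted thresholds. At an unadjusted p it moved the counts to 4 in REG against LFG (Egr1 joining), 3 in hADMSCs-Exo against LFG (Atf3) and 3 in hADMSCs-Exo against REG (Jun and Ier2). For hADMSCs-Exo against LFG it gave 0 immediate early genes past the thresholds and a log2 fold change of -1.61 for Fos and -0.88 for Junb. In every comparison the same-numbered samples share only a number. The correlations of their deviations were 0.415, -0.202 and 0.305 for REG and LFG, and 0.159, 0.00939 and 0.0336 for hADMSCs-Exo and REG. Of the values of single genes, 349 kept their direction and side of the threshold, 6 passed it and 23, of 10 genes and comparisons, turned their direction. The cause was not tested. With the replicate block Myc was 0.055 in REG against LFG and Ier3 0.13 in hADMSCs-Exo against REG. With library totals only, which shift the median of all genes by -0.20, -0.12 and 0.06 in the 3 comparisons, Myc was -0.17 in hADMSCs-Exo against LFG and Ier3 0.052 in hADMSCs-Exo against REG. With voom these were -0.57 and 0.65, and with at least 10 counts in every library Myc was -0.032. With each library left out, the values in REG against LFG ran from -0.27 to 0.081 for Junb, from -0.093 to 0.76 for Ier2, from -0.59 to 0.29 for Ier3 and from -0.74 to 0.64 for Myc. In hADMSCs-Exo against LFG they ran from -0.72 to 0.058 for Jun, from -0.42 to 0.043 for Ier3 and from -0.40 to 0.99 for Myc. In hADMSCs-Exo against REG they ran from -0.024 to 1.02 for Egr1, from -0.46 to 0.43 for Ier3 and from -0.11 to 0.46 for Klf6. Depth limits Fosb, with 2 counts over the REG libraries, and Ier3, with as few as 10 counts in a library.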

Other observations

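REG 2 was the lowest of the 9 libraries for 6 of the 10 immediate early genes, Fos, Fosb (tied with REG 3), Jun, Egr1, Ier3 and Atf3, and for 8.34% of 12590 genes with enough counts to rank. The other members were lowest in LFG 1 (Ier2), LFG 3 (Klf6 and Myc) and hADMSCs-Exo 3 (Junb), which were lowest for 19.9%, 25.5% and 5.66% of the same genes. LFG 3 was the highest library for Fos and Fosb and LFG 2 for Junb, Myc and Klf6, and these libraries were highest for 25.8% and 11.8% of the same genes. The highest library was hADMSCs-Exo 1 for Jun and Ier2, hADMSCs-Exo 3 for Egr1, LFG 1 for Atf3 and REG 1 for Ier3. Members are not independent of each other, and what these libraries share was not tested.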
